A study of Mus musculus with 16 samples.

Results

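Hydrogen sulfide is a gas that cells make from cysteine and homocysteine and that bacteria make in the gut lumen, and the 7 genes described here encode enzymes that produce it or dispose of it. Cbs (cystathionine beta-synthase), Cth (cystathionine gamma-lyase) and Mpst (3-mercaptopyruvate sulfurtransferase) belong to the producing side. Sqor (sulfide quinone oxidoreductase), Ethe1 (persulfide dioxygenase), Suox (sulfite oxidase) and Tst (thiosulfate sulfurtransferase, or rhodanese) belong to the disposal side. In mitochondria, Sqor oxidizes sulfide and hands the sulfur to glutathione, Ethe1 turns the resulting persulfide into sulfite, Suox turns sulfite into sulfate, and Tst moves sulfur between thiosulfate and acceptors such as glutathione or cyanide. The lining of the gut is known for its capacity to oxidize the sulfide that bacteria release next to it.

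The 7 genes were chosen by name as members of this pathway, and the pathway was chosen from a measured value, the level of Tst, which was lower in ieIRKO-STAM-INS mice than in Control-STAM-nonINS mice. That contrast is therefore described below without a test. All 7 genes were found among the 41740 genes of the files, and all 7 passed the filter on low counts that left 15267 genes for testing.

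The data are total RNA sequencing of the whole ileal wall of 16 male STAM mice at 20 weeks of age, with separate biological replicates according to the labels. STAM mice, of C57BL/6J background in the study's methods, received streptozotocin, a toxin of the insulin-producing beta cells, on day 2 of life and were put on a high-fat diet at 4 weeks, and they develop diabetes with fatty liver disease and liver tumors. The groups were Control-STAM-nonINS (n = 4), floxed insulin receptor mice without Cre that received no insulin and, per the methods, saline, Control-STAM-INS (n = 6, also called treated controls), the same genotype injected with insulin degludec, a long-acting insulin, 2 times a day from 6 weeks of age at up to 12 U/kg, and ieIRKO-STAM-INS (n = 6), floxed mice with Villin-Cre given the same insulin. Villin-Cre acts in the intestinal epithelium, while the whole wall also holds muscle, nerve, immune and connective tissue cells. No group combined the Cre with the absence of insulin, so the effect of the genotype could be read only under insulin.

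The libraries held between 13288018 and 22215382 counted reads. Levels are given as CPM, read counts scaled by TMM to equal library sizes. The ileal markers Fabp6 and Slc10a2 summed to between 4332 and 9886 CPM per library, while 5 genes listed for colon epithelium summed to between 41.1 and 230.4 CPM. Of these, Car1 and Aqp8 had at most 8 and 5 reads in any library, whereas Slc37a2 reached 77, B3galt5 1579 and Ang4 4546 reads. Insr, the targeted gene, did not have a lower level in libraries labelled ieIRKO-STAM-INS, with 67.2 ± 13.4 CPM (SD, n = 6) against 62.7 ± 10.1 CPM (SD, n = 6) in Control-STAM-INS (log2 fold change 0.10, adjusted p = 0.805 from edgeR). In Control-STAM-nonINS it had 105 ± 12.3 CPM (SD, n = 4). Counts cover the whole gene and the whole wall, and the floxed exon is not named in the sources used here, so this check cannot show a partial loss. The study itself reports strongly reduced insulin receptor mRNA in the ileum of ieIRKO-STAM mice by PCR, a measure that is not part of these counts. Every direction drawn below from these 6 libraries rests on their labels. In the same comparison 15 of 19 tested alpha-defensins, antimicrobial peptides of Paneth cells, passed as lower, against 0.183% of all genes. The B cell genes Cd79a, Cd79b and Ms4a1 summed to 170.3 and 270.01 CPM in ieIRKO-STAM-INS replicates 2 and 3 and to between 15.5 and 47.2 CPM in the other 14 libraries. Values that rest on ieIRKO-STAM-INS are therefore also given without these replicates where it is said so.

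Tst and Mpst are neighbours and relatives. Their sequences are shown because, with insulin in the control genotype, Tst passed as lower while Mpst did not pass. Between the insulin-treated groups both had a lower fitted level, and neither passed with all libraries. The difference between the pair was not tested. In the GENCODE annotation of GRCm38, Tst lies on the minus strand at chr15:78399556-78405907 and Mpst on the plus strand at chr15:78406416-78414013, head to head, with 508 bases between their starts. The coding sequences of Tst-201 and Mpst-202 both have 891 bases, and 405 of them (45.5%) were the same base when the sequences were laid side by side without gaps. Both proteins carry sulfur on a cysteine that opens a short loop at the active site, and in both it is encoded by codon 248. The 60 coding bases around that loop are given 5′ to 3′, with its 6 codons in capitals, and 11 of these 18 bases were the same in both genes.
Tst: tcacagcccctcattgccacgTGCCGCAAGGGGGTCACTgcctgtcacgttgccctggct
Mpst: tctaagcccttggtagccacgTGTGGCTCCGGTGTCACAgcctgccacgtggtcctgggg

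The longest run of bases shared by the transcripts of the pair was 18 bases long and coding in both, shown in capitals with 20 bases to each side.
Tst: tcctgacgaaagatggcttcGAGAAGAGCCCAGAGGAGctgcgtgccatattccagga
Mpst: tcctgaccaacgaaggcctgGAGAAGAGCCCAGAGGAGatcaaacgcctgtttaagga
No run of 50 bases was shared by the pair. Of the 50-base runs of each of the 7 genes, between 0% and 1.11% occurred in a transcript of another gene, with the highest share in Cbs.

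The other genes lie on 5 chromosomes of GRCm38. Ethe1 is at chr7:24587543-24608925 on the plus strand, Sqor at chr2:122765237-122809569 on the plus strand, Suox at chr10:128669894-128674073 on the minus strand, Cbs at chr17:31608894-31637238 on the minus strand and Cth at chr3:157894248-157925077 on the minus strand. The first exon of Ethe1 overlaps that of the antisense gene Zfp575 over 99 bases, which is 6.67% of the exon bases of Ethe1. Zfp575 had between 0 and 15 reads per library, against 324 reads or more for Ethe1. The strand setting of the counting is not given in the sources used here.

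Promoters of RefSeq (GRCm38.p6) were found for 5 of the 7 genes, and those of Cbs and Ethe1 are shown because both genes were lower with insulin. The bases given end before the annotated start of Cbs and before the first exon of Zfp575 in Ethe1. The window of Cbs is chr17:31637239-31637455 on the minus strand and that of Ethe1 is chr7:24587293-24587450 on the plus strand. Capitals mark the GC box GGGCGG, a common promoter motif, searched on both strands.
Cbs: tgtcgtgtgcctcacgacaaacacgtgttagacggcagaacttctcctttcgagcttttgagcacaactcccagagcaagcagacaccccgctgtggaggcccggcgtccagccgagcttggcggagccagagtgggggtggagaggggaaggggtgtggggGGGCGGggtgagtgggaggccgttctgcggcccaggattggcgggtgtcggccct
Ethe1: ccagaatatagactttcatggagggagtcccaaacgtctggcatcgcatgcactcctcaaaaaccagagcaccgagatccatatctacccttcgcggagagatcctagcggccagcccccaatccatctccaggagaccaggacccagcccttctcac
The Cbs window, of 217 bases with 65.4% G or C, held 1 GC box, and 28.0% of RefSeq promoters hold a GC box in a window of that length and place. The Ethe1 window of 158 bases held 0, where 17.8% of promoters hold one. The motif GTAAACA, bound by FOXO factors, which insulin keeps out of the nucleus, was in neither window on either strand, and 2.79% and 2.10% of promoters hold it in windows of these lengths. In the full RefSeq windows of 250 bases before the start, which reach into the annotated Cbs and Zfp575, Cbs held 2 GC boxes and Ethe1 held 1, at position -87 from its RefSeq start, just past the bases shown. The other RefSeq promoter of Ethe1, at chr7:24593658-24593907 on the plus strand, held 3. Of all RefSeq windows of that length, 32.7% hold a GC box. These matches describe letters and say nothing of binding.

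The enzymes differed widely in level. CPM per kilobase of exon sets genes of unlike length side by side. The lengths merge the exons of all annotated transcripts, 7485 bases for Cbs against 1484 for Ethe1, so the order depends in part on the annotation. On this scale Suox had the highest level in each group, with 196 ± 32.1 (SD, n = 4) in Control-STAM-nonINS. Sqor followed there with 45.4 ± 6.94 CPM per kilobase, Mpst with 41.0 ± 6.83 and Ethe1 with 38.8 ± 5.25. These 3 neighbours in the order overlapped in their ranges over libraries. Cth came next with 22.3 ± 2.27 CPM per kilobase, then Tst with 15.99 ± 3.84 and Cbs with 0.654 ± 0.376, each apart from its neighbours. In Control-STAM-INS, Mpst was at 44.1 ± 10.7 CPM per kilobase (SD, n = 6) and Sqor at 37.2 ± 4.32, with overlapping ranges. Cth stood there at 24.1 ± 2.64 CPM per kilobase and Ethe1 at 22.05 ± 4.24, again overlapping, so Ethe1 was no longer apart from Cth as it was without insulin. Tst was the sixth and Cbs the last in all 3 groups.

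**Figure D1:**
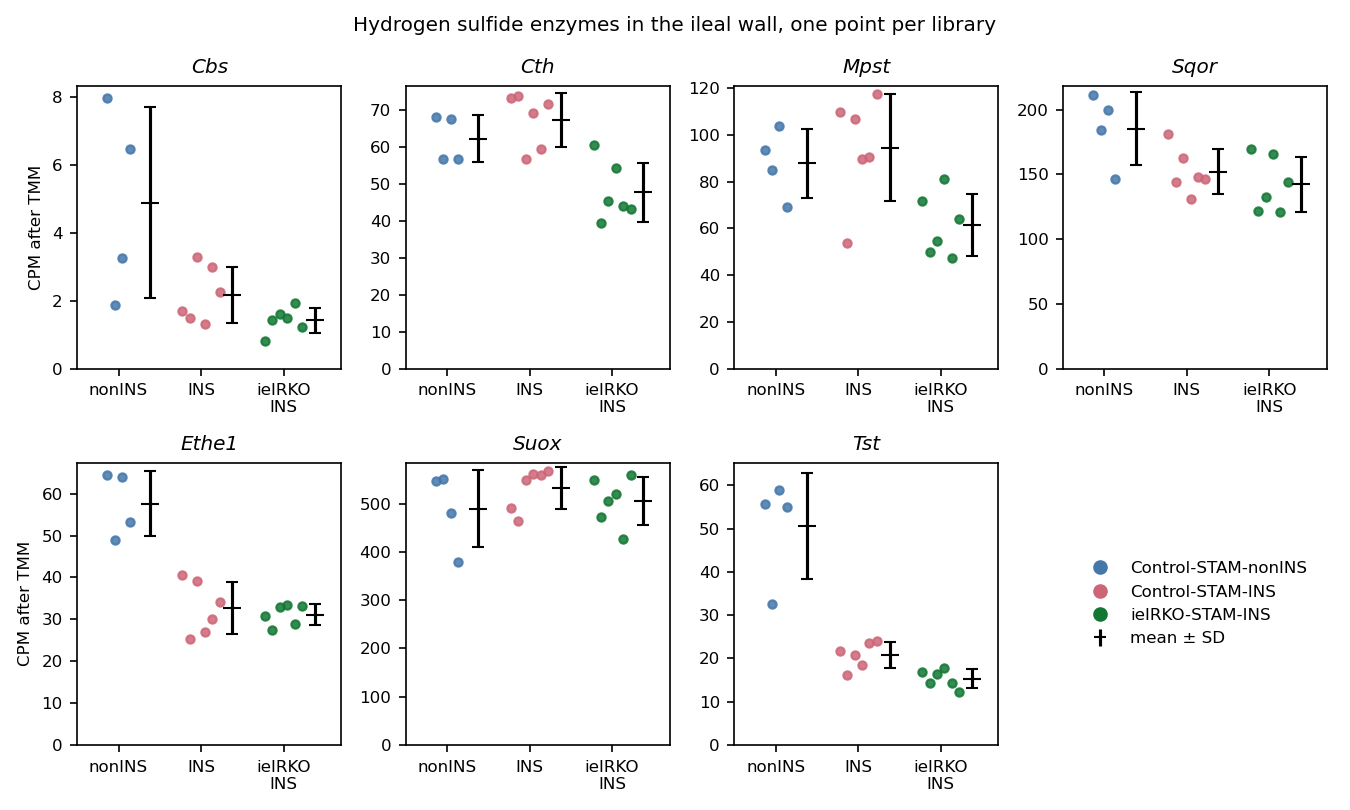
Level of each enzyme gene in CPM after TMM (vertical axes, each from 0) in every library, by group, with the mean ± SD beside the points. For Tst and Ethe1 all 6 Control-STAM-INS points lie below all 4 Control-STAM-nonINS points, while Suox, Mpst and Cth overlap between these groups.

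Insulin treatment in the control genotype was compared first, as the study asked what insulin changes in the diabetic gut. With insulin, 3 of the 7 genes were lower at an adjusted p under 0.05 and 0 were higher, namely Tst, Ethe1 and Cbs. Of all 15267 genes tested, 10.5% passed in either direction and 6.76% passed as lower. The median log2 fold change was -0.28 over the 7 genes and -0.0043 over all genes tested. Both genes of the mitochondrial disposal route that fell, Tst and Ethe1, had groups that did not overlap, which held in the lower direction for 6.23% of all genes. The 4 Control-STAM-nonINS libraries were also part of the contrast that Tst was chosen from, so the result for Tst is not independent of the choice. In bulk tissue, fewer cells of a type and less RNA per cell cannot be told apart.

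Tst had 55.8, 32.5, 59.0 and 55.0 CPM in the 4 Control-STAM-nonINS libraries and, in Control-STAM-INS, a lowest value of 16.1, a median of 21.2 and a highest value of 24.1 CPM. The library at 32.5 CPM lay well under the other 3 of its group and still above all 6 of Control-STAM-INS. Tst fell by 58.9% with insulin (log2 fold change -1.28, standard error 0.15, adjusted p = 8.96e-05 in edgeR's quasi-likelihood fit). The log2 fold change lay between -1.43 and -1.19 in all alternative settings.

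Ethe1, whose enzyme acts on the persulfide that Sqor makes, had 64.4, 48.8, 64.0 and 53.3 CPM without insulin and a lowest value of 25.4, a median of 32.1 and a highest value of 40.5 CPM in Control-STAM-INS. All 6 treated libraries lay below all 4 untreated ones. Ethe1 fell by 43.1% (log2 fold change -0.81, standard error 0.12, adjusted p = 0.000605 from edgeR). Sqor, the enzyme just before it in the route, had 211, 184, 199 and 146 CPM without insulin and between 131 and 181 CPM with it, so the groups overlapped. Its log2 fold change of -0.28 (standard error 0.12) missed the threshold with an adjusted p = 0.156 from edgeR.

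Suox, which makes sulfate from sulfite, had 547, 550, 481 and 379 CPM without insulin and a lowest value of 464, a median of 553 and a highest value of 568 CPM with it. The ranges overlapped, and the log2 fold change of 0.12 had a 95% confidence interval from -0.10 to 0.34 (adjusted p = 0.552 from edgeR). The disposal route thus held 2 genes that fell and 2 that did not pass the test.

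On the producing side, Cbs had few reads. It had 7.97, 1.88, 3.24 and 6.47 CPM in Control-STAM-nonINS, from 24 to 148 reads, and between 1.32 and 3.29 CPM in Control-STAM-INS, from 19 to 55 reads. The groups overlapped, and 3 of the 6 treated libraries lay below all untreated ones. Cbs fell by 55.7% (log2 fold change -1.17, standard error 0.34, adjusted p = 0.0356 from edgeR). That call was lost in 8 of the 17 alternative settings. Without Control-STAM-nonINS replicate 1 the adjusted p was 0.172, without replicate 4 of that group 0.113, and without Control-STAM-INS replicate 1, 2, 4 or 6 it lay between 0.0609 and 0.0732.

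Cth, which releases sulfide and cysteine from cystathionine and related compounds, had 67.8, 56.6, 67.3 and 56.7 CPM without insulin and between 56.5 and 73.8 CPM with it. Its log2 fold change of 0.11 had a 95% confidence interval from -0.12 to 0.34 (adjusted p = 0.593 from edgeR). Mpst had 93.4, 84.8, 104 and 69.2 CPM without insulin and, with it, a lowest value of 53.6, a median of 98.5 and a highest value of 117 CPM. The log2 fold change of Mpst was 0.11 with a 95% confidence interval from -0.27 to 0.49 (adjusted p = 0.779 from edgeR).

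**Figure D2:**
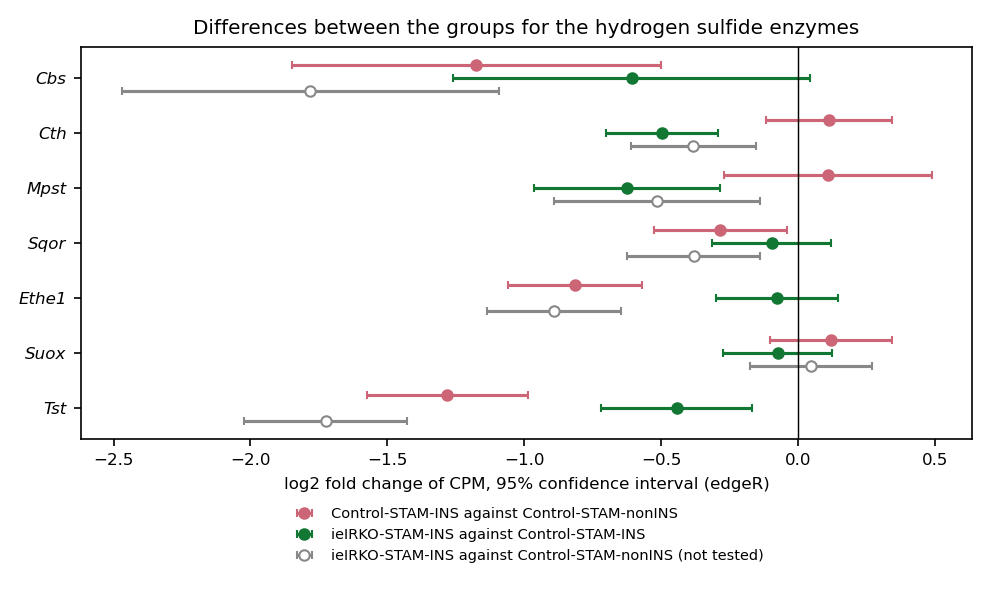
Log2 fold change of each enzyme gene (horizontal axis, from edgeR, with a 95% confidence interval from the normal quantile) in the tested comparisons (filled points) and in the contrast used for the choice (open points, not tested). Tst, at -1.28, and Ethe1, at -0.81, lie far to the left of 0 with insulin, and all 7 points of ieIRKO-STAM-INS against Control-STAM-INS lie to the left of 0.

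The genotype was compared next, under insulin. All 7 genes had a lower fitted level in the libraries labelled ieIRKO-STAM-INS than in treated controls, but 0 of 7 passed an adjusted p of 0.05 in edgeR, where 0.223% of all genes passed in either direction and 0.183% as lower. At an unadjusted p under 0.05, 3 of the 7 were lower (Cth, Mpst and Tst), against 3.9% of all genes. None of the 7 had groups without overlap, which held in the lower direction for 0.406% of all genes. The median log2 fold change was -0.44 over the 7 genes and 0.02 over all genes. DESeq2 called 1 of the 7, Cth, where it called 0.762% of all genes in either direction. Without ieIRKO-STAM-INS replicates 2 and 3, 7 of 7 were again below 0, 0 passed in edgeR, where 0.151% of all genes did, and 3 were lower at an unadjusted p under 0.05, against 2.80% of all genes. The libraries labelled ieIRKO-STAM-INS also entered the contrast that Tst was chosen from.

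Cth had a lowest value of 56.5, a median of 70.2 and a highest value of 73.8 CPM in Control-STAM-INS, and 39.2, 44.5 and 60.3 CPM in ieIRKO-STAM-INS. Of the 6 libraries labelled ieIRKO-STAM-INS, 5 lay below all 6 of Control-STAM-INS, and replicate 1 lay among them. The difference in Cth was -0.50 on the log2 scale, with a standard error of 0.11 and an adjusted p = 0.0646 from edgeR. The call turned on the setting, since the adjusted p was 0.00527 with DESeq2, 0.0450 with upper-quartile scaling, 0.0402 without Control-STAM-INS replicate 3 and 0.00838 without ieIRKO-STAM-INS replicate 1. Without ieIRKO-STAM-INS replicates 2 and 3 it was 0.355, at a log2 fold change of -0.43.

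Mpst had a lowest value of 53.6, a median of 98.5 and a highest value of 117 CPM in Control-STAM-INS, and 47.4, 59.3 and 81.1 CPM in ieIRKO-STAM-INS. The groups overlapped only through Control-STAM-INS replicate 2, at 53.6 CPM, which was the lowest of its group also for Tst, Ethe1 and Suox. The log2 fold change of Mpst was -0.62 (standard error 0.17, adjusted p = 0.265 from edgeR). Without that replicate it was -0.74 with an adjusted p = 0.0318, and without ieIRKO-STAM-INS replicates 2 and 3 it was -0.53 with an adjusted p = 0.664.

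Tst had between 16.1 and 24.1 CPM in Control-STAM-INS and a lowest value of 12.2, a median of 15.4 and a highest value of 17.9 CPM in ieIRKO-STAM-INS. The ranges overlapped, with 3 of the 6 libraries labelled ieIRKO-STAM-INS below all of Control-STAM-INS. The log2 fold change of -0.44 (standard error 0.14) had an adjusted p = 0.293 from edgeR, and it was -0.45 without ieIRKO-STAM-INS replicates 2 and 3. Cbs had between 0.817 and 1.94 CPM, from 12 to 37 reads, in these libraries, and its log2 fold change of -0.61 had a 95% confidence interval from -1.26 to 0.04 (adjusted p = 0.518 from edgeR). Without replicates 2 and 3 it was -0.66.

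The remaining genes of the disposal route differed little between the insulin-treated groups. Ethe1 had between 27.6 and 33.4 CPM in ieIRKO-STAM-INS, within its range in Control-STAM-INS, and a log2 fold change of -0.08 with a 95% confidence interval from -0.30 to 0.15 (adjusted p = 0.841 from edgeR). Sqor had between 121 and 170 CPM and a log2 fold change of -0.10 with an interval from -0.32 to 0.12 (adjusted p = 0.787 from edgeR). Suox had between 427 and 559 CPM and a log2 fold change of -0.07 with an interval from -0.27 to 0.12 (adjusted p = 0.822 from edgeR). Without replicates 2 and 3 the log2 fold changes were -0.06 for Ethe1, -0.03 for Sqor and -0.06 for Suox. For these 3 genes, differences of the size seen for Ethe1 with insulin lie outside the intervals.

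In the contrast used for the choice, ieIRKO-STAM-INS against Control-STAM-nonINS, the log2 fold change of Tst was -1.72 (standard error 0.15), that of Cbs -1.78 (0.35) and that of Ethe1 -0.89 (0.12). Mpst stood at -0.51 (0.19), Cth at -0.38 (0.12), Sqor at -0.38 (0.12) and Suox at 0.05 (0.11). For Tst and Ethe1 most of this distance lay between the control groups with and without insulin, whereas for Mpst and Cth it lay between the insulin-treated groups. Without ieIRKO-STAM-INS replicates 2 and 3 the values were -1.72 for Tst, -1.82 for Cbs, -0.87 for Ethe1, -0.41 for Mpst, -0.30 for Cth, -0.30 for Sqor and 0.07 for Suox. These values are a description and were not tested.

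Ratios of read counts within a library do not depend on how libraries are scaled. The following 3 were chosen after the values were seen and are given without a test. Without insulin there were 0.586 ± 0.168 reads of Tst per read of Mpst (SD, n = 4), against 0.228 ± 0.0431 (SD, n = 6) in treated controls and 0.256 ± 0.0473 (SD, n = 6) in libraries labelled ieIRKO-STAM-INS. The lowest untreated library, at 0.384, lay above the highest of the insulin-treated ones, at 0.302. Per read of Sqor there were 0.314 ± 0.0411 reads of Ethe1 without insulin, 0.214 ± 0.0233 in treated controls and 0.221 ± 0.0245 in the libraries labelled ieIRKO-STAM-INS, again with no overlap between the untreated and the treated libraries. Tst per Ethe1 went from 0.872 ± 0.153 over 0.646 ± 0.101 to 0.494 ± 0.0653 with overlap between neighbouring groups. Without ieIRKO-STAM-INS replicates 2 and 3, the means of that group were 0.237 for Tst per Mpst, 0.213 for Ethe1 per Sqor and 0.487 for Tst per Ethe1 (n = 4). The untreated libraries behind the ratios of Tst are among those that Tst was chosen from.

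**Figure D3:**
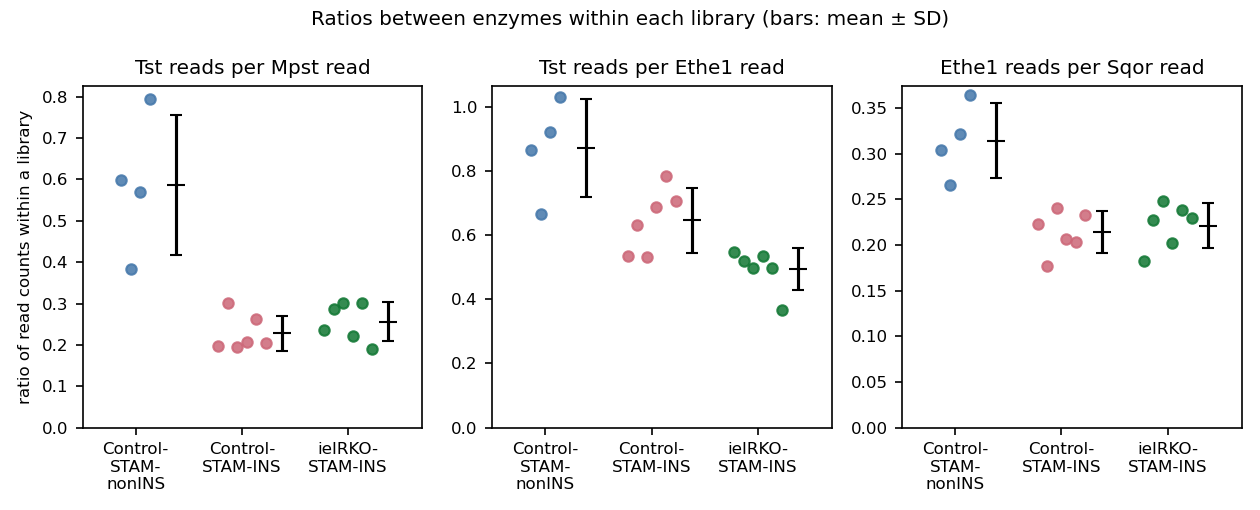
Ratio of read counts of 2 genes within each library (vertical axes, from 0) by group, with the mean ± SD beside the points. The untreated libraries, from 0.384 upward, stand above all treated ones for Tst per Mpst, and from 0.266 upward for Ethe1 per Sqor.

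Cell type markers were read beside these results. Between the control groups, the summed level of 10 enterocyte markers was 20072 to 37119 CPM without and 24881 to 38690 CPM with insulin. Of the 10, 6 had log2 fold changes above 0 and 4 below, with a median of 0.18. Fabp1 alone passed the test, as lower, against 6.76% of all genes. Both ileal markers, Fabp6 and Slc10a2, were below 0 with insulin, with a median of -0.30 and 0 past the threshold. The lowest untreated enterocyte sum was that of Control-STAM-nonINS replicate 4, which was also the lowest of its group for Mpst, Sqor and Suox. It had 165 CPM of the sulfate transporter Slc13a1, against 591 to 713 CPM in the other 3. Without it the log2 fold changes with insulin were -1.24 for Tst, -0.85 for Ethe1, -0.38 for Sqor, 0.0091 for Mpst and 0.02 for Suox. The 4 T cell markers summed to 3.55 to 9.36 CPM without and 13.9 to 26.2 CPM with insulin, 3 of 3 tested passed as higher, against 3.73% of all genes, and Trac was at 0 in every library. Between the insulin-treated groups, the enterocyte markers summed to 10751 to 38462 CPM in ieIRKO-STAM-INS, with 9 of 10 log2 fold changes below 0, a median of -0.32 and 0 past the threshold in edgeR (0 also at an unadjusted p under 0.05). The ileal markers Fabp6 and Slc10a2 were both below 0, with a median of -0.37 and 0 past either threshold. These medians had the same sign as the -0.44 of the 7 enzymes. The lowest sum was that of replicate 5, which also had the lowest level of Mpst, Sqor and Suox in its group. The 5 markers of B and plasma cells summed to 956 to 1539.5 CPM in treated controls and 1571 to 3111 CPM in the libraries labelled ieIRKO-STAM-INS, and 5 of 5 were higher at an unadjusted p under 0.05, against 7.38% of all genes, while 0 passed after adjustment. Without replicates 2 and 3, 4 of 5 were higher at that threshold, against 3.82% of all genes, and their median log2 fold change was 0.80, where it was 2.01 with all libraries. The part of these cells in the results was not tested.

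The lists for crypt cells (483 to 829 CPM), smooth muscle (2253 to 3506), macrophages (79.6 to 173), neurons and glia (23.7 to 38.5), hepatocytes (10.2 to 173) and adipocytes (8.86 to 287) had sums that overlapped between all groups and 0 genes past the threshold in either tested comparison. The pancreatic acinar markers summed to at most 0.268 CPM. Of the 5 genes listed for colon epithelium, 3 were tested. Ang4, an antimicrobial protein that ileal Paneth cells also make, was lower in libraries labelled ieIRKO-STAM-INS, at 51.7 CPM against 162 CPM in treated controls (log2 fold change -1.64, or -1.59 without replicates 2 and 3, with edgeR's adjusted p = 0.000402 over all 6). The other two had values above 0, with B3galt5 at 27.7 against 13.4 CPM (log2 fold change 1.05, adjusted p = 0.680) and Slc37a2 at 3.07 against 2.13 CPM (log2 fold change 0.52, adjusted p = 0.453). Without replicates 2 and 3 they stood at 1.44 and 0.14.

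The wider handling of sulfur was read from 54 other genes in 6 lists, of which 51 passed the filter. With insulin, 5 of the 51 passed as lower and 0 as higher, against 6.76% of all genes lower. The median log2 fold change of the 51 was -0.0086, close to that of all genes. In the comparison of the insulin-treated groups 0 of the 51 passed in edgeR, 8 were lower and 2 higher at an unadjusted p under 0.05 (against 3.9% and 7.38% of all genes), and DESeq2 called 0. Without ieIRKO-STAM-INS replicates 2 and 3, 3 were lower and 1 higher at that threshold, against 2.80% and 3.82% of all genes.

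The 5 genes that fell with insulin have different roles. Csad, which makes the taurine precursor hypotaurine, went from 20.7 ± 1.69 CPM (SD, n = 4) to 12.6 ± 1.31 CPM (SD, n = 6), with all 6 treated libraries below all untreated ones (log2 fold change -0.72, standard error 0.12, adjusted p = 0.00158 from edgeR). Ahcy, which releases homocysteine, the substrate of Cbs, went from 172 ± 15.6 to 126 ± 2.56 CPM, also without overlap (log2 fold change -0.45, standard error 0.09, adjusted p = 0.00450). Dao, a D-amino acid oxidase that can turn D-cysteine into the substrate of Mpst, had a log2 fold change of -0.62 (adjusted p = 0.0153). Tpmt, a thiol methyltransferase, stood at -0.59 (adjusted p = 0.0169) and Tstd1, a small protein with a rhodanese domain like that of Tst, at -0.50 (adjusted p = 0.0213). Without Control-STAM-nonINS replicate 4 only Ahcy and Csad of these 5 passed.

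Of the 51 genes, 3 had groups without overlap in the lower direction (Ahcy, Csad and Mettl7a1), against 6.23% of all genes, and 2 in the higher direction (Gsr and Slc7a9), against 4.4%. Gsr, glutathione reductase, went from 151 ± 26.7 to 229.6 ± 37.1 CPM (log2 fold change 0.60, with edgeR's adjusted p = 0.0631). It passed as higher with DESeq2 and with only the compared groups fitted. Slc7a9, a subunit of the cystine transporter, stood at 0.37 (adjusted p = 0.113) and passed as higher without Control-STAM-nonINS replicate 2.

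By list, read against the 6.76% of all genes that passed as lower, cysteine breakdown and taurine had 2 of 8 tested genes lower with insulin (Csad and Dao), log2 fold changes below 0 in 8 of 8 and a median of -0.34. Got1, a cytosolic aminotransferase that feeds Mpst with mercaptopyruvate, stood at -0.32 (adjusted p = 0.234), its mitochondrial counterpart Got2 at -0.24 (adjusted p = 0.142), and Cdo1, the cysteine dioxygenase that opens the route to taurine, at -0.35 (adjusted p = 0.104). Sulfide and thiol handling had 2 of 13 lower (Tpmt and Tstd1), with a median of -0.01. Selenbp1, a methanethiol oxidase that itself gives off sulfide, stood at 0.16 (adjusted p = 0.462), and Slc25a10, a mitochondrial carrier that also moves thiosulfate and sulfate, at 0.13 (adjusted p = 0.443). The methionine cycle had 1 of 9 lower (Ahcy). Glutathione synthesis and cystine uptake (10 genes, median 0.17), sulfate transport and activation (7 genes, median 0.12) and the synthesis of the molybdenum cofactor that Suox needs (4 genes, median -0.15) had 0 genes past the threshold.

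Between the insulin-treated groups, the list for sulfate transport and activation had log2 fold changes below 0 in 7 of 7 genes, with a median of -0.26 (ieIRKO-STAM-INS relative to treated controls) and 4 of 7 lower at an unadjusted p under 0.05, against 3.9% of all genes. Without ieIRKO-STAM-INS replicates 2 and 3, 7 of 7 were again below 0 with a median of -0.29, but 0 of 7 were lower at that threshold. The median was -0.20 for glutathione synthesis and cystine uptake, -0.12 for sulfide and thiol handling, -0.05 for cysteine breakdown and taurine, 0.04 for the molybdenum cofactor and 0.10 for the methionine cycle. Without replicates 2 and 3 these medians were, in the same order, -0.25, -0.06, -0.13, 0.06 and 0.06. Got1 stood at -0.41 (adjusted p = 0.336 from edgeR), with 5 of the 6 libraries labelled ieIRKO-STAM-INS below all of Control-STAM-INS. Selenbp1 stood at -0.26 (adjusted p = 0.390), Tstd1 at -0.12 (adjusted p = 0.731), Got2 at 0.12 (adjusted p = 0.649), Cdo1 at 0.05 (adjusted p = 0.899) and Slc25a10 at -0.15 (adjusted p = 0.523).

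**Figure D4:**
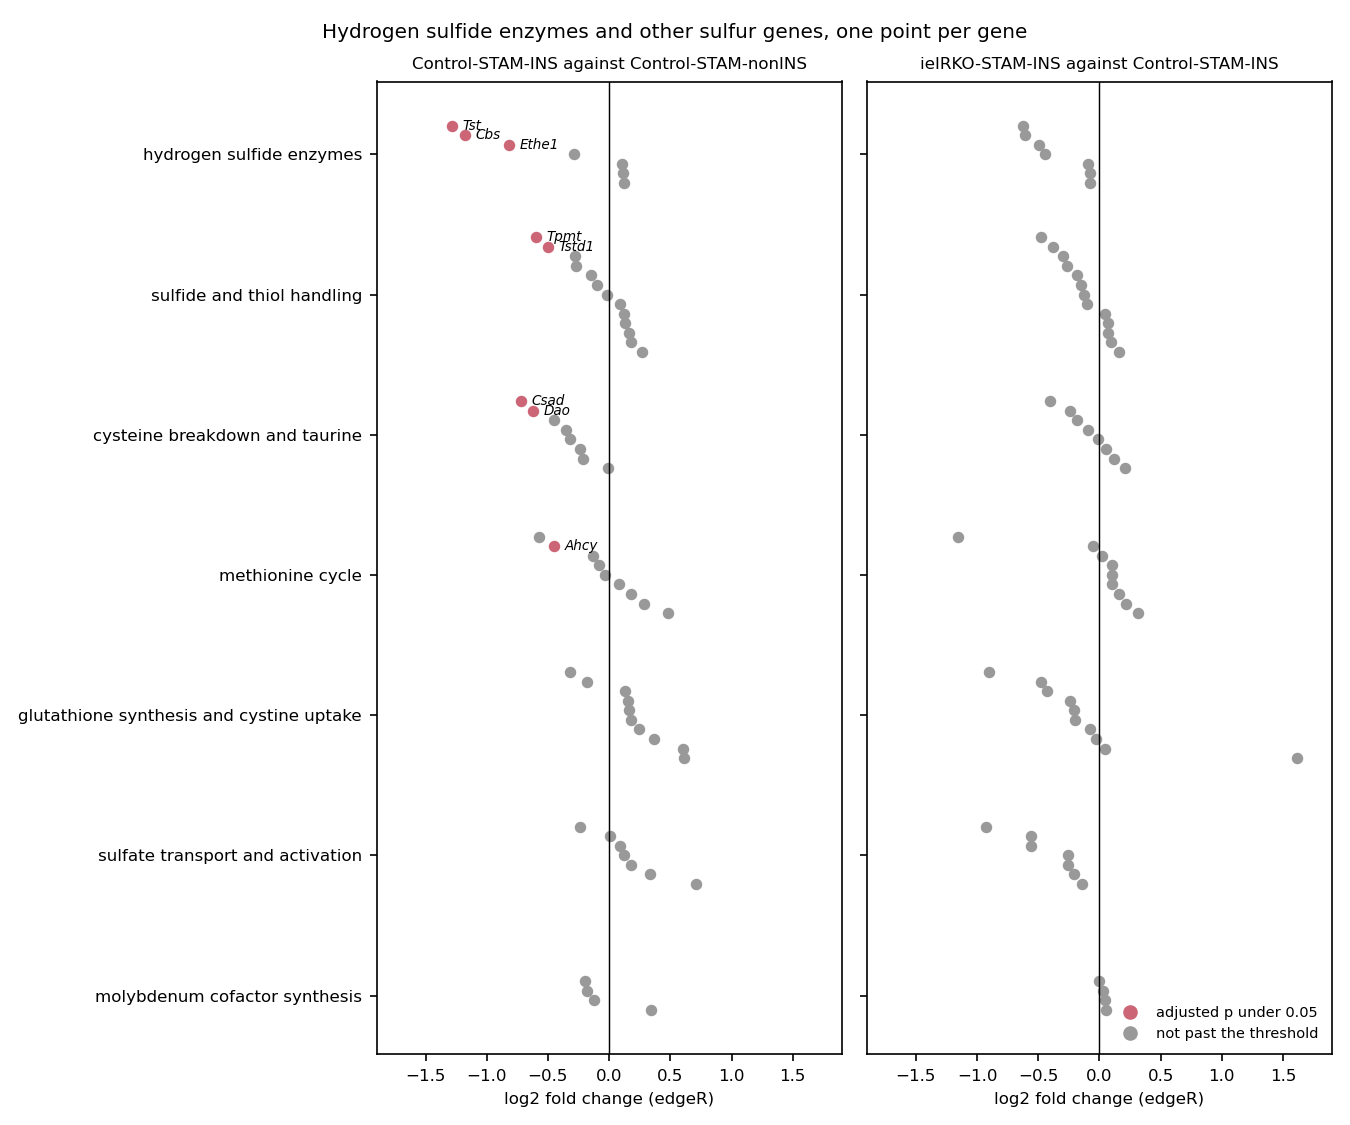
Log2 fold change (horizontal axes) of the 7 enzyme genes and 51 other sulfur genes, 1 point per gene in rows by list, for insulin in the control genotype (left) and for the insulin-treated groups (right, ieIRKO-STAM-INS relative to Control-STAM-INS). Colored, named points passed an adjusted p under 0.05 in edgeR, 8 on the left, all lower, and 0 on the right.

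Among 9440 other genes with a mean of at least 10 CPM, the profile of Tst over the 16 libraries was most like those of Scnn1a (Pearson r = 0.95 on log2 CPM), Selenom (0.94), Cyb5r3 (0.93), Ankrd13b (0.93) and Ndrg2 (0.93). Scnn1a, the alpha subunit of the epithelial sodium channel, stood at 21.5 ± 2.77 CPM without insulin (SD, n = 4), at 13.9 ± 0.691 in treated controls (SD, n = 6) and at 10.4 ± 0.891 in the libraries labelled ieIRKO-STAM-INS (SD, n = 6). Selenom, a selenoprotein of the endoplasmic reticulum, had 138 ± 24.5, 60.4 ± 10.03 and 57.1 ± 6.46 CPM in the same order. These correlations describe 16 libraries that share the 3 groups, and within the groups, as deviations from each group's mean, they were between 0.61 and 0.77.

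Of the other enzymes of the pathway, Ethe1 had the profile most like that of Tst, at rank 15 of 9440 (r = 0.90, within groups 0.56). Cbs, whose mean was under 10 CPM and which was not ranked, had r = 0.82. Sqor came at rank 633 (r = 0.67), Mpst at rank 1404 (r = 0.50), Cth at rank 1607 (r = 0.47) and Suox at rank 5844 (r = -0.20). Within groups, r was 0.55 for Cbs and 0.49 for Mpst, both close to that of Ethe1. It was 0.33 for Cth, 0.27 for Sqor and -0.07 for Suox. Over the 14 libraries without ieIRKO-STAM-INS replicates 2 and 3, Zbtb4 (r = 0.95) and Gstm1 (r = 0.94) entered the first 5 beside Scnn1a, Selenom and Ndrg2, and Ethe1 came at rank 29 of 9376 (r = 0.90), Sqor at 961, Mpst at 1933, Cth at 2250 and Suox at 6074. The order of these values describes the pattern that chose Tst and was not tested.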

How the data were processed

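Total RNA of the ileal whole wall of 16 mice was sequenced. The authors aligned the reads to GRCm38 (mm10) with CLC Genomics Workbench and deposited, for each library, the raw count of reads per gene, without normalization. The library kit keeps strand, and the counting's strand setting and its treatment of reads that match several genes are not given in the sources used here. Labels gave a group for all 16 libraries, and every library was used. Identical files numbered 0.

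The counts were analysed with edgeR 4.0.16, limma 3.58.1 and R 4.3.3. Genes were filtered with filterByExpr (minimum count 10, minimum total 15), which left 15267 of 22872 genes with a count, scaled by TMM and fitted over all 3 groups with the robust quasi-likelihood model. Tests were two-sided, with Benjamini-Hochberg adjustment over all tested genes. Log2 CPM used a prior count of 2, and 95% confidence intervals the normal quantile. Lengths are the merged exons of GENCODE M21, in which 40704 of the 41740 names were found. Totals of 13288018 to 22215382 reads set the precision. A limit of detection of 3 reads was set but was not used to filter or mask any value. The code was also run on counts simulated from the means and dispersion of the same fit. Such a run checks the code and cannot show how the model handles outlier libraries, tissue mixture or small changes.

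The members and the gene lists, written from general knowledge, were chosen with earlier results of these data known. Named were the 7 members, Insr, 6 close partners (Got1, Got2, Cdo1, Selenbp1, Tstd1 and Slc25a10), every other listed sulfur gene past the threshold and the 5 genes most like Tst. Marker genes, alpha-defensins, Zfp575, Gsr, Slc7a9, Mettl7a1, Slc13a1 and the 3 ratios of reads were named or chosen after their values were seen, and 1 listed marker is not reported here. Alternatives were DESeq2 1.42.0, relative-log and upper-quartile scaling, no filter, alpha-defensins left out, only the groups compared, the replicate number as a block, each library left out in turn, and ieIRKO-STAM-INS replicates 2 and 3 left out together.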

Additional observations from a re-analysis of the deposited data

Results flagged for a closer look

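In Control-STAM-nonINS, Tst in replicate 2, at 32.5 CPM, lay far below the other 3 libraries, at 55.0 to 59.0 CPM. Its distance to the nearest other library was 0.882 of the range of the group on the log2 scale. In Control-STAM-INS, Mpst in replicate 2, at 53.6 CPM, lay below the other 5 libraries, at 89.7 to 117 CPM, with a distance of 0.657 of the range. Of 21 such checks, over 7 genes in 3 groups, 2 passed Dixon's critical value, where chance gives about 1.05.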

How the results depend on the processing

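With insulin in the control genotype, Tst and Ethe1 kept their direction and passed the threshold in all 17 alternatives, with adjusted p up to 0.000786 for Tst and 0.00379 for Ethe1. The enzymes past the threshold numbered 2 to 3 when a library was left out. The 1602 genes of this comparison became 824 (without Control-STAM-nonINS replicate 1) to 1877 when a library was left out, and 1325 (no filter) to 2052 (DESeq2) otherwise. The 5 other sulfur genes became 2 (without Control-STAM-nonINS replicate 4) to 8 (without replicate 2).

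Between the insulin-treated groups, the 34 genes became 18 with the alpha-defensins left out (15 of the 34 were alpha-defensins themselves, each of them lower, while 18 of the other 19 still passed), 127 with DESeq2 (70 higher, 57 lower; the cause was not tested) and 29 to 50 when a library was left out. The enzymes past the threshold numbered 1 with upper-quartile scaling and 1 with DESeq2 (Cth in both), and 0 to 1 when a library was left out. The other sulfur genes numbered 0 to 1 when a library was left out.

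Same-numbered libraries of different groups showed little likeness, with correlations of deviations from the group means between -0.09 and 0.18 in 14 pairs. In 70 pairs of other numbers they lay between -0.31 and 0.23. The medians were 0.02 and 0.0028, and 4 and 10 pairs were over 0.1. Of the 16 libraries, 3 were closest to their own number. The replicate numbers were read as names of samples. This check cannot show whether same-numbered mice shared a litter or batch. With the replicate number as a block, 1397 genes passed with insulin, with 2 enzymes (Cbs was lost) and 5 other sulfur genes, and 30 genes passed between the treated groups, with 0 enzymes and 0 other sulfur genes.

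Cbs had few reads, 12 to 148 per library, and its untreated libraries also ranged from 1.88 to 7.97 CPM. The part of depth in that spread was not tested.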
